A study of Mus musculus with 32 samples.

Results

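The genes described here encode the nuclear subunits of respiratory complexes II to V and the electron carrier cytochrome c. They were taken by symbol: Sdha, Sdhb, Sdhc, Sdhd, Cyc1, Cycs, and every name starting with Uqcr, Atp5, Cox4, Cox5, Cox6, Cox7 or Cox8, with names ending in -ps left out. The names matched 50 of 41388 counted genes, and 45 had a mean of at least 1 CPM (counts scaled to a common library total) over 32 libraries. These were 4 genes of complex II, 9 of complex III, cytochrome c, 14 of complex IV and 17 of complex V. Cox6c2, Cox7a1, Cox7b2, Cox8b and Cox8c, all of complex IV by name, fell below the minimum. All 45 genes passed the filter on low counts that the tests used.

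The RNA came from primary chondrocytes, which build and keep cartilage, of the inbred mouse strains LG/J and SM/J, which descend from lines bred for large and for small body size. Each strain and sex formed a group, 4 in all, with 8 libraries each and no treatment or engineered allele. The mice were at postnatal day 21. The cells came from femoral heads and were harvested without passaging after 4 days in medium with 10% serum. Whether each library stems from its own animal or culture is not in the labels. The p-values therefore reflect only how these libraries spread, and that spread may be technical. In bulk RNA, fewer cells of a type and less RNA per cell cannot be told apart.

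Complex II (succinate dehydrogenase) oxidises succinate in the citric acid cycle and passes the electrons to ubiquinone. Complex III passes them to cytochrome c, complex IV passes them to oxygen, and complex V uses the proton gradient so built to make ATP. All subunits of complex II are encoded in the nucleus, whereas complexes III to V also hold subunits encoded by mitochondrial DNA. Several small subunits of complexes IV and V exist as isoforms from separate genes, some of them typical of muscle, lung or testis. Cartilage has no blood vessels, and chondrocytes are known to draw most of their ATP from glycolysis.

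Levels are CPM scaled by TMM, a correction of each library's total, and a log2 fold change is LG/J minus SM/J with its standard error (SE), so a negative value is lower in LG/J. Calls were made where edgeR's quasi-likelihood test gave an adjusted p under 0.05, with adjustment over all 16136 genes tested. Total counts ran from 15840330 to 25571598 reads per library. Chondrocyte markers were present in every library: Col2a1, the main cartilage collagen, ran from 628 to 14842 CPM.

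Some libraries stood apart, and this bears on most values below. In 8 libraries, LG/J male 8, SM/J female 8 and SM/J males 3 to 8, Cyc1 lay between 15.96 and 26.26 CPM and Cox5a between 10.3 and 21.4 CPM. In the other 24 libraries Cyc1 was at 43.7 CPM or more and Cox5a at 46.3 CPM or more. Of the 16136 genes tested, 78 (0.483%) were lower in each of these 8 libraries than in any of the others, and 13 (0.0806%) were higher in each. Among the genes outside complexes II to V, 2 that were low there were named after their values were seen. Nubp1, which encodes an iron-sulfur cluster assembly factor of the cytosol, was at 3.31 to 5.18 against 7.59 to 19.7 CPM, and Pgam5, which encodes a mitochondrial phosphatase, at 1.34 to 2.64 against 4.83 to 11.8 CPM. The 8 libraries were found by these values, so the levels of Cyc1 and Cox5a in them are a description, and the counts of called genes below are set beside those without them. What made them differ was not tested.

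The same libraries differed in how short and long genes compared. For each library, the log2 deviation of each gene from its mean over all libraries was taken, for genes with a mean of at least 30 CPM outside complexes II to V, and the median of 1453 genes over 5000 bases was subtracted from that of 534 genes under 1500 bases. This difference was 0.29 to 0.47 in SM/J males 3 to 8 and 0.21 in LG/J male 8, against -0.24 to -0.01 in the 24 other libraries. SM/J female 8, at -0.04, was within the range of the latter. The median deviation of the 45 genes ran in the same order, at 0.20 to 0.33 in SM/J males 3 to 8, 0.16 in LG/J male 8, 0.00 in SM/J female 8 and -0.29 to 0.06 in the 24 others. The 45 genes are short, with a median length of 1363 bases and 25 under 1500 bases, against a median of 3613 bases for the 4706 other genes at that level.

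**Figure D1:**
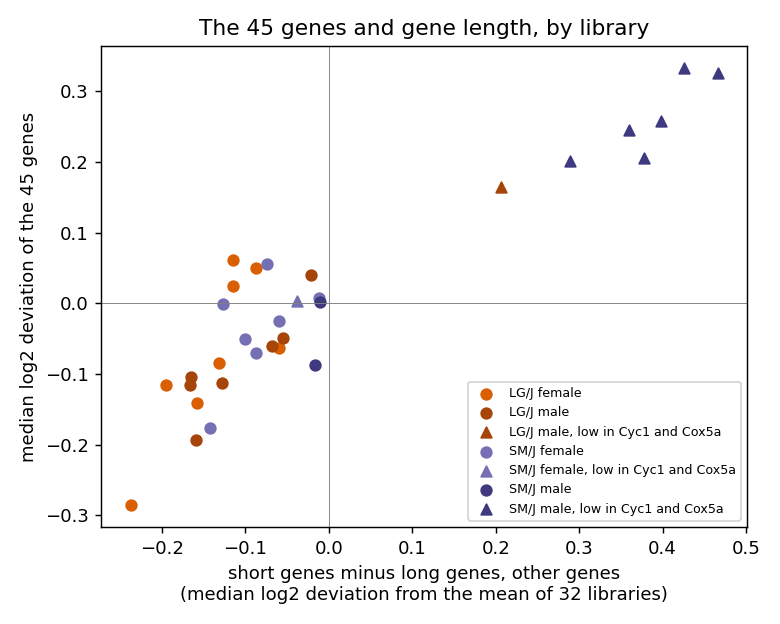
Median log2 deviation of the 45 genes (vertical axis) against the short-minus-long difference of other genes (horizontal axis) in 32 libraries, coloured by group, with triangles for the 8 libraries low in Cyc1 and Cox5a. SM/J males 3 to 8 and LG/J male 8 lie at the upper right, at 0.21 or more on the horizontal and 0.16 or more on the vertical axis.

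Both LG/J libraries numbered 1 also stood apart. Acan, the main cartilage proteoglycan, was at 48.1 CPM in the female and 67.6 CPM in the male library, and the cytokine Il6 reached 63.8 and 39.7 CPM, where no SM/J library exceeded 1.16 CPM. Another 6 libraries held transcripts of both sexes. Xist, expressed from the inactive X chromosome, was at 16.3 and 17.6 CPM in SM/J males 2 and 3, and Ddx3y, a Y-linked gene, was at 19.6 to 82.5 CPM in 4 female libraries (numbers 4 and 5 of LG/J, 3 and 4 of SM/J). In 6 pairs of libraries of 1 group (numbers 4 with 5 and 7 with 8 of the LG/J females, 2 with 3 and 4 with 5 of the LG/J males, 3 with 4 of the SM/J females, 6 with 7 of the SM/J males) counts differed by 6.18 to 9.55 times sampling noise, against 14.2 or more in the 106 other pairs.

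The strain comparison asked how the respiratory subunits differed between chondrocytes of LG/J and SM/J. In all 32 libraries 20 of the 45 genes were lower and 1 was higher in LG/J, where 13.5% of all genes tested were lower and 16.4% higher. The differences were small: the 20 lower genes ran from -0.36 to -0.15, and the median over all 45 was -0.14 (1.10-fold lower), against 0.02 over all genes. None of the 45 genes had LG/J and SM/J libraries that did not overlap, which 2.62% of all genes had. By complex, 3 of 4 genes of complex II, 3 of 9 of complex III, 5 of 14 of complex IV and 9 of 17 of complex V were lower in LG/J.

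Most of these calls were lost without the 8 libraries, a set of 24 chosen after the data were seen. There 3 of 45 genes were lower in LG/J (Sdha of complex II, Uqcrfs1 of complex III and Cox5a of complex IV) and 1 was higher (Atp5h of complex V), where 5.96% of all genes tested were lower and 6.35% higher. Cox5a helped to choose the libraries left out, so its call there is a description and not a test. The median of the 45 genes was then -0.05, against 0.03 over all genes. Of the 20 genes lower in all 32 libraries, Sdha and Uqcrfs1 were called again. All 20 still had a negative value, and 19 were closer to 0, all but Uqcrfs1. Their median moved from -0.23 to -0.12. The SM/J males of this set are numbers 1 and 2 alone, and number 2 is among the libraries with transcripts of both sexes. How far the fall in calls came from fewer libraries was not tested.

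**Figure D2:**
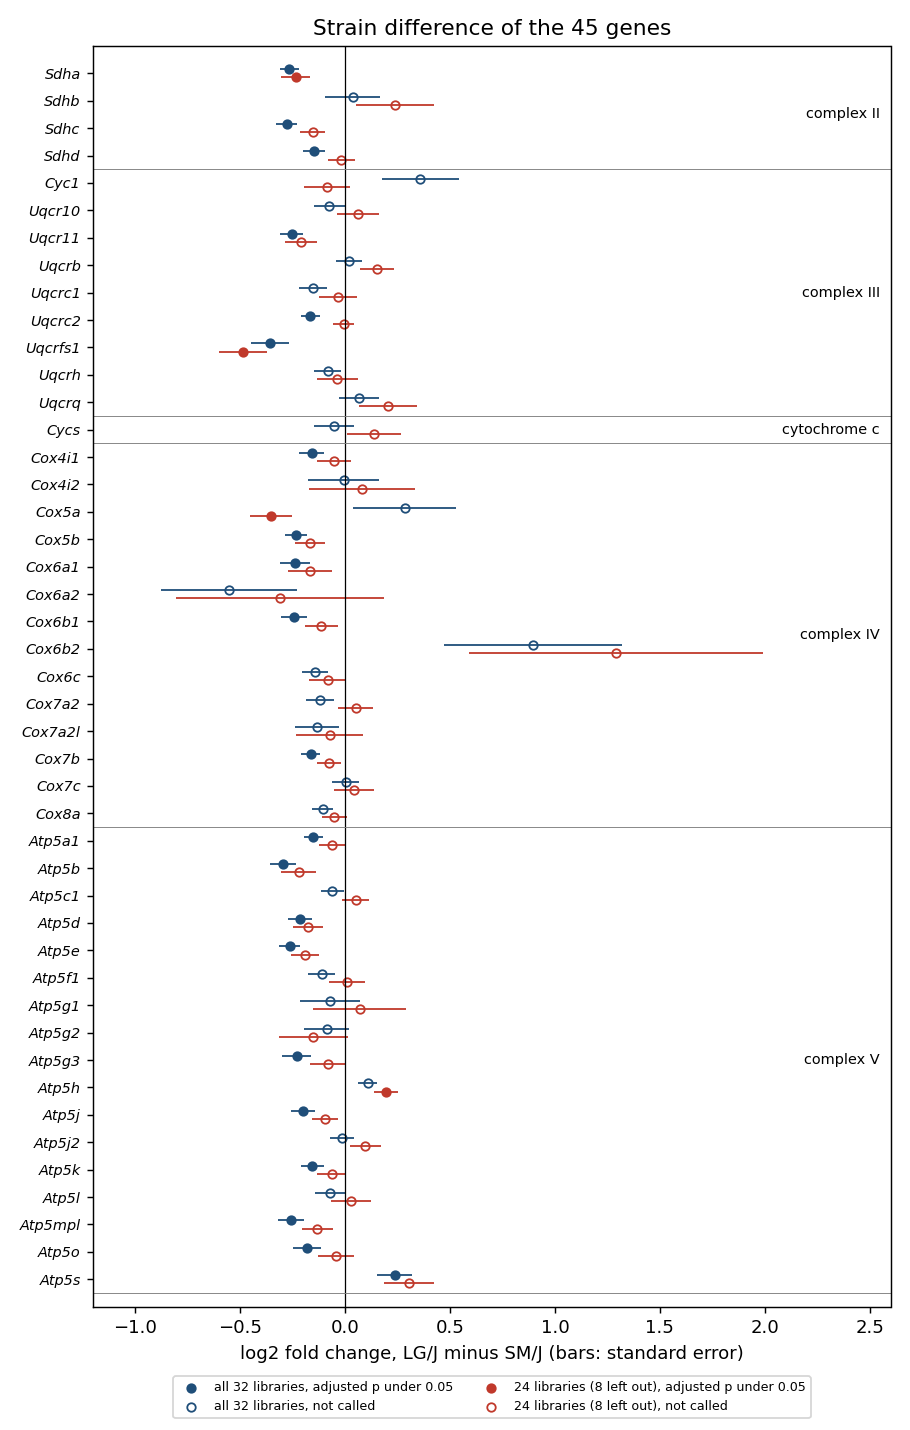
Log2 fold change, LG/J minus SM/J, with its SE for the 45 genes by complex, in all 32 libraries (blue) and in the 24 left without those low in Cyc1 and Cox5a (red), filled where called. For 19 of the 20 genes lower in blue the red point lies nearer 0, and Sdha and Uqcrfs1 are filled in both.

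With an offset that removes the trend of each library's counts with gene length, 12 of the 45 genes were lower and 3 higher, where 12.4% and 14.7% of all genes were, and the median of the 45 was -0.06. In males, genes outside complexes II to V had a median of -0.22 under 1500 bases, -0.06 from 1500 to 5000 bases and 0.13 over 5000 bases. The 25 genes of complexes II to V under 1500 bases and the 20 from 1500 to 5000 bases both had -0.24. In females these medians were -0.02, -0.05 and 0.03 for the other genes. The 25 and the 20 had 0.01 and -0.06, so in females the 20 were close to other genes of like length, which in males they were not. Over both sexes the 25 had -0.11, as did other genes under 1500 bases. The 20 had -0.16 over both sexes, against -0.06 for other genes from 1500 to 5000 bases.

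By sex, females had 4 genes lower in LG/J (Sdha, Sdhc, Atp5a1 and Atp5b) and 1 higher (Atp5h), where 6.49% and 6.87% of all genes were. Leaving out the 8 libraries, of which 1 is an SM/J female, females had 6 lower (these 4, Uqcrfs1 and Cox5a) and 1 higher (Atp5h), where 5.11% and 5.69% were. The call of Cox5a, which helped to choose the 8, is again a description. The counts for males are those of all libraries. Males had 20 lower and 1 higher (Cyc1), where 9.48% and 12.8% were. The median of the 45 genes was -0.04 in females and -0.24 in males. The strain differences were not shown to differ between the sexes: 0 of 45 genes passed the interaction test of edgeR, 20 had an unadjusted p under 0.05, and the lowest adjusted p was 0.137, for Atp5e. Of all 16136 genes 1 (0.0062%) was called by edgeR. DESeq2 called 1 of the 45 and limma voom with quality weights called 10. The shares of all genes called by DESeq2 and limma are not given here, so their counts cannot be set against the share of edgeR. In the other 24 libraries edgeR called 0 of the 45 and 0 of all genes (0%), and 3 of the 45 had an unadjusted p under 0.05. Of the 8 SM/J male libraries 6 are among those low in Cyc1 and Cox5a. Without the 8 low libraries the male comparison, with SM/J males 1 and 2 alone on 1 side, called 0 of 45 genes by edgeR. There 4 had an unadjusted p under 0.05, and 3.79% of all genes were called. Cyc1 helped to choose the 8, so the loss of its call in males is a description.

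The promoters of 32 of the 45 genes were found in a RefSeq table of the GRCm38.p6 assembly, as windows from 250 bases before to 50 bases after the first listed start. NRF1 and the ETS-family factor GABP are known activators of respiratory genes. The core of the NRF1 site, GCGCA and GCGC with any base between them, was found on either strand in 9 of 32 windows (28.1%) against 4.78% of 27025 windows of all genes. The ETS letters CCGGAAG were in 11 of 32 (34.4%) against 9.12%, and the YY1 letters AAGATGGC in 1 of 32 (3.12%) against 2.88%. A match describes letters and not a bound site. Matches were also in genes not called between the strains, such as Sdhb, Uqcrc1 and Uqcrh. Some genes lower in LG/J, such as Atp5b, Cox5b and Uqcrfs1, had none. Whether matches go with the strain difference was not tested. The 120 bases before the start are shown for 3 genes lower in LG/J in all 32 libraries, with matches in capitals, each read on the minus strand: Sdha (chr13:74350241-74350360) holds the NRF1 letters at -98, -55 and -10 from the start, Sdhd (chr9:50603850-50603969) the NRF1 letters at -79 and the ETS letters at -46, and Atp5e (chr2:174464102-174464221) the ETS letters at -102.
Sdha: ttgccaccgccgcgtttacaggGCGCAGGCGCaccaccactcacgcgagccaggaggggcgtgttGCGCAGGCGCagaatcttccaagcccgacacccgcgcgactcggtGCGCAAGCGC
Sdhd: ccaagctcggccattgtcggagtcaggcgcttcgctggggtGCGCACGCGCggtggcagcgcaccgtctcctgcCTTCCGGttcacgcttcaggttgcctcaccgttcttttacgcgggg
Atp5e: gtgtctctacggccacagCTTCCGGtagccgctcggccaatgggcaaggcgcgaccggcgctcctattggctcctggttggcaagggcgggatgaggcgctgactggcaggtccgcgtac

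In complex II, Sdha, the flavoprotein that binds and oxidises succinate, was lower in LG/J in each fit that was run. Its lowest, median and highest levels were 336, 393 and 416 CPM in LG/J females and 418, 483 and 512 CPM in SM/J females. In males they were 322, 428 and 447 CPM for LG/J and 447, 476 and 541 CPM for SM/J. The females did not overlap, and the males met at the edge. The log2 fold change was -0.27 ± 0.05 (adjusted p = 2.9e-05), and -0.24 ± 0.07 without the 8 libraries (adjusted p = 0.025). In females alone it was -0.30 ± 0.06 (adjusted p = 0.00099) and in males -0.23 ± 0.06 (adjusted p = 0.010). In the 17 other settings the adjusted p was at most 0.043, and no single library left out lifted it above 7.6e-05.

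Sdhc and Sdhd encode the membrane anchors that bind ubiquinone. Sdhc had medians of 174 CPM in LG/J females (161 to 195), 180 CPM in LG/J males (161 to 215), 211 CPM in SM/J females (191 to 229) and 234 CPM in SM/J males (183 to 252), so the strains overlapped in each sex. Its log2 fold change was -0.28 ± 0.05 (adjusted p = 5.5e-05), and -0.16 ± 0.06 without the 8 libraries (adjusted p = 0.10). Sdhd was lower by a smaller value, -0.15 ± 0.05 (adjusted p = 0.032), and stood at -0.02 ± 0.07 without the 8 libraries. Its call was also lost without LG/J female 1, LG/J male 1 or any of SM/J males 6, 7 and 8. Sdhb, the iron-sulfur subunit between Sdha and the anchors, did not pass the test, at 0.04 ± 0.13. It varied more within groups than the other subunits of this complex, from 245 to 602 CPM in LG/J females and from 248 to 694 CPM in LG/J males, and the lowest library of each was number 1.

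**Figure D3:**
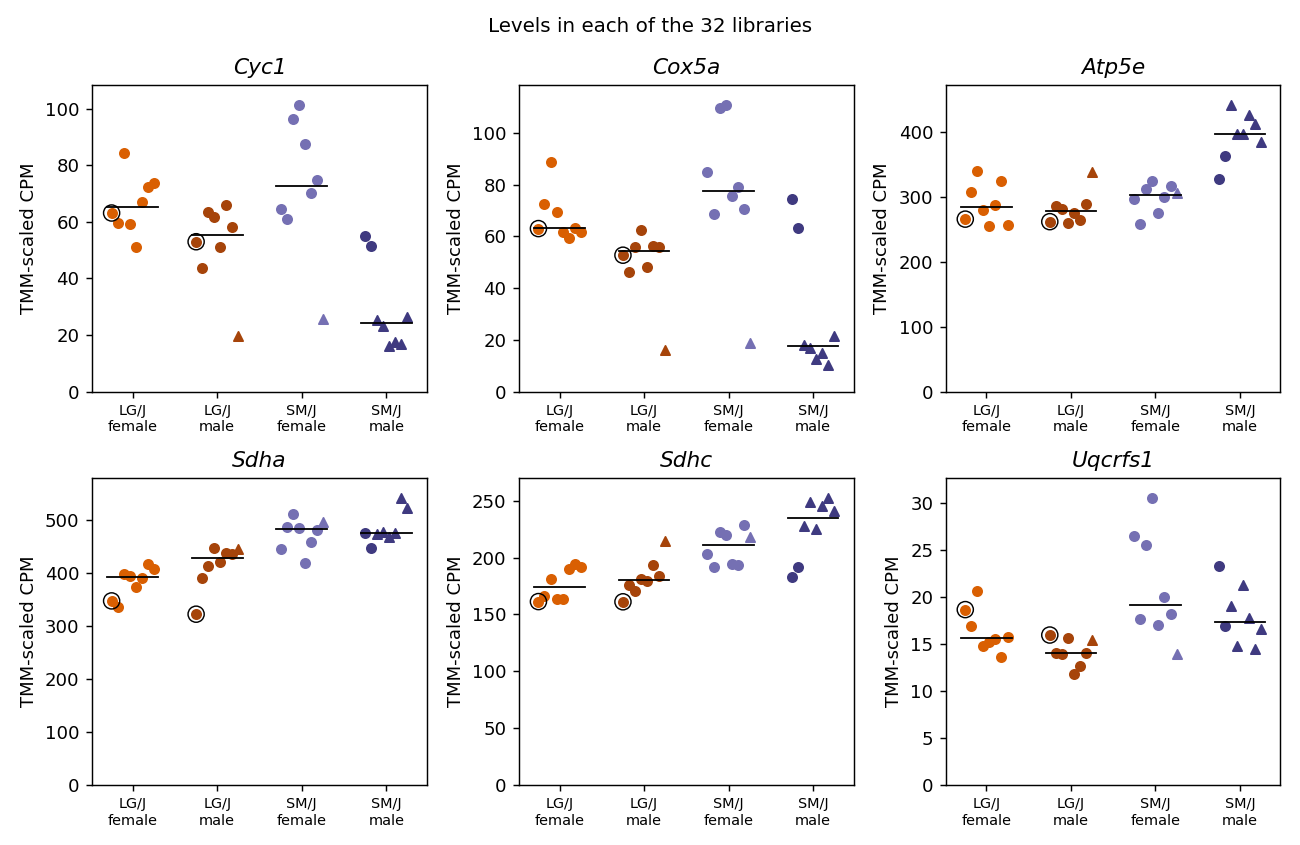
TMM-scaled CPM of Cyc1, Cox5a, Atp5e, Sdha, Sdhc and Uqcrfs1 in each of 32 libraries by group, with a line at the group median, triangles for the 8 libraries low in Cyc1 and Cox5a, and rings around both LG/J libraries numbered 1. For Cyc1 and Cox5a the triangles lie below all other points, and for Sdha the LG/J and SM/J females do not overlap.

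In complex III, Uqcrfs1, the Rieske iron-sulfur protein, was lower in LG/J with and without the 8 libraries. Its lowest, median and highest levels were 13.6, 15.6 and 20.7 CPM in LG/J females and 13.9, 19.1 and 30.5 CPM in SM/J females. In males they were 11.8, 14.1 and 15.9 CPM for LG/J and 14.5, 17.3 and 23.3 CPM for SM/J, so the strains overlapped in both sexes. The log2 fold change was -0.36 ± 0.09 (adjusted p = 0.0031), and -0.49 ± 0.11 without the 8 libraries (adjusted p = 0.0043). In the 17 other settings its adjusted p was at most 0.049.

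Uqcr11, a small subunit of the membrane part, was lower at -0.25 ± 0.06 (adjusted p = 0.00062), with -0.21 ± 0.08 without the 8 libraries (adjusted p = 0.072). Uqcrc2, a core protein on the matrix side, was lower at -0.17 ± 0.05 (adjusted p = 0.0050). It was the 1 gene of the 45 that was higher in each of the 8 libraries (239 to 283 CPM) than in any of the others (197 to 238 CPM), and without them it stood at -0.01 ± 0.05. The hinge protein gene Uqcrh, the core protein gene Uqcrc1 and the small subunits Uqcr10, Uqcrb and Uqcrq did not pass the strain test, with values of -0.08, -0.15, -0.08, 0.02 and 0.07.

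Cyc1 encodes cytochrome c1, the haem protein that hands electrons to cytochrome c, and its level followed the 8 libraries. Medians were 65.1 CPM in LG/J females, 55.5 CPM in LG/J males, 72.5 CPM in SM/J females and 24.1 CPM in SM/J males. SM/J males 1 and 2 were at 54.9 and 51.4 CPM and the other 6 between 15.96 and 26.26 CPM. LG/J male 8 was at 19.8 CPM and SM/J female 8 at 25.5 CPM, and every other library of the remaining groups was at 43.7 CPM or more. It was called higher in LG/J males at 0.85 ± 0.26 (adjusted p = 0.017) and did not pass over both sexes, at 0.36 ± 0.18 (adjusted p = 0.14). Leaving them out, its value over both sexes was -0.09 ± 0.11, which is a description because Cyc1 chose them. None of its 50-base windows was shared with another transcript.

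Cycs, the somatic cytochrome c that carries electrons from complex III to complex IV, was counted at 3.02 to 6.11 CPM, with a log2 fold change of -0.05 ± 0.10 that did not pass. Of the 50-base windows of its transcript 28.2% also lay in other transcripts, and 4 near-identical copies are annotated. The share was over 25% for 7 of the 45 genes, and their levels differed widely. Atp5l (68.5%) and Cox7c (27.9%) averaged 5.54 and 6.22 CPM, whereas Atp5h (47.9%), Uqcrb (43.2%), Atp5o (35.5%) and Cox5b (25.9%) averaged 83.0, 119, 363 and 41.9 CPM. The part of shared windows in these levels was not tested.

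In complex IV, 5 of 14 genes were lower in LG/J over both sexes, 0 were called in females and 8 were lower in males, where 13.5% of all genes were lower over both sexes and 9.48% in males. The counts without the 8 libraries were 1 of 14 over both sexes and 1 in females, Cox5a each time, and 0 in males. As Cox5a helped to choose the 8, its call is a description. Cox5b, a matrix-side subunit, was at -0.24 ± 0.05 (adjusted p = 0.00080), Cox6b1, which joins the monomers of the dimer, at -0.24 ± 0.06 (adjusted p = 0.0028), and Cox7b, an X-linked subunit, at -0.16 ± 0.04 (adjusted p = 0.0054). Leaving out the 8, these values were -0.17 ± 0.07, -0.11 ± 0.08 and -0.08 ± 0.06, and none was called. Cox5b, for example, had medians of 39.4 CPM in LG/J females (29.9 to 44.1), 37.3 CPM in LG/J males (33.9 to 45.4), 41.4 CPM in SM/J females (36.0 to 43.1) and 51.0 CPM in SM/J males (40.9 to 54.8). The SM/J males were highest and overlapped the others. Cox6c and Cox7c, small membrane subunits, did not pass over both sexes, at -0.14 ± 0.06 and 0.00 ± 0.07, and Cox6c was lower in males at -0.33 ± 0.09 (adjusted p = 0.0065).

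Cox5a, a matrix-side subunit known to bind a thyroid hormone metabolite, had medians of 63.1 CPM in LG/J females, 54.3 CPM in LG/J males, 77.4 CPM in SM/J females and 17.5 CPM in SM/J males. Its single low libraries were LG/J male 8 at 16.01 CPM and SM/J female 8 at 18.9 CPM, where the lowest other values of those groups were 46.3 and 68.8 CPM. Over all 32 libraries the strain difference did not pass, at 0.28 ± 0.25 (adjusted p = 0.42). Without the 8 libraries it was -0.35 ± 0.10, a description for the same reason as for Cyc1.

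Isoforms of complex IV were compared as TMM-scaled CPM per kilobase of the gene length in the deposited counts. Cox4i1, the isoform found in most tissues, was at 407 ± 51.4 (SD, n = 16) in LG/J and 456 ± 56.1 (SD, n = 16) in SM/J. Cox4i2, known from lung and induced by low oxygen, was at 268 ± 69.0 in LG/J and 278 ± 103 in SM/J. How far apart these 2 isoforms lie depends on the length used: Cox4i1 was 1.58-fold higher per kilobase of deposited length (1550 and 788 bases), 2.98-fold higher per kilobase of the longest annotated coding transcript (765 and 733 bases) and 3.10-fold higher in CPM. Their strain differences were -0.16 ± 0.06 (adjusted p = 0.046) for Cox4i1, lost with each of 20 libraries left out in turn, and -0.01 ± 0.17 for Cox4i2. In SM/J females Cox4i2 ran from 53.7 to 262 CPM, with females 3 and 4 at 53.7 and 61.6 CPM and the other 6 at 126 CPM or more.

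The ubiquitous Cox6a1 was at 417 ± 66.5 per kilobase in LG/J and 493 ± 55.3 in SM/J, and the heart and muscle isoform Cox6a2 at 24.8 ± 12.0 and 37.7 ± 16.4. Cox6a1 was lower in LG/J at -0.24 ± 0.07 (adjusted p = 0.012) and stood at -0.17 ± 0.10 without the 8 libraries. Cox6a2 did not pass, at -0.55 ± 0.32. It was low in LG/J female 1 (0.616 CPM) and LG/J male 1 (1.64 CPM) and in SM/J females 3 and 4 (3.78 and 3.28 CPM), while SM/J males ran from 23.0 to 40.9 CPM. The other heart and muscle isoforms were near the bottom of the range, with Cox7a1 at 0.543 and Cox8b at 0.107 CPM on average. The muscle creatine kinase Ckm was at most 0.284 CPM in any library, and the 12 muscle markers summed to 7.56 to 24.8 CPM in LG/J and 13.6 to 44.5 CPM in SM/J.

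Cox6b2, the testis isoform of Cox6b1, was at 39.6 CPM in LG/J female 1 and 37.0 CPM in LG/J male 1, and between 1.19 and 8.83 CPM in the 30 other libraries. The strain difference of 0.90 ± 0.42 did not pass (adjusted p = 0.11), and without both it was -0.15 ± 0.24, of the opposite sign. Cox7a2 and Cox8a, the widely expressed isoforms, were at 345 ± 35.2 and 275 ± 24.6 per kilobase in LG/J and at 378 ± 72.5 and 297 ± 32.3 in SM/J. Neither passed over both sexes, at -0.12 ± 0.07 and -0.11 ± 0.05. Cox7a2l, which takes part in joining complexes III and IV into supercomplexes, was at 71.9 ± 18.6 and 79.0 ± 15.2 per kilobase and did not pass, at -0.14 ± 0.10. Cox7b2 and Cox8c averaged 0.161 and 0.213 CPM.

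**Figure D4:**
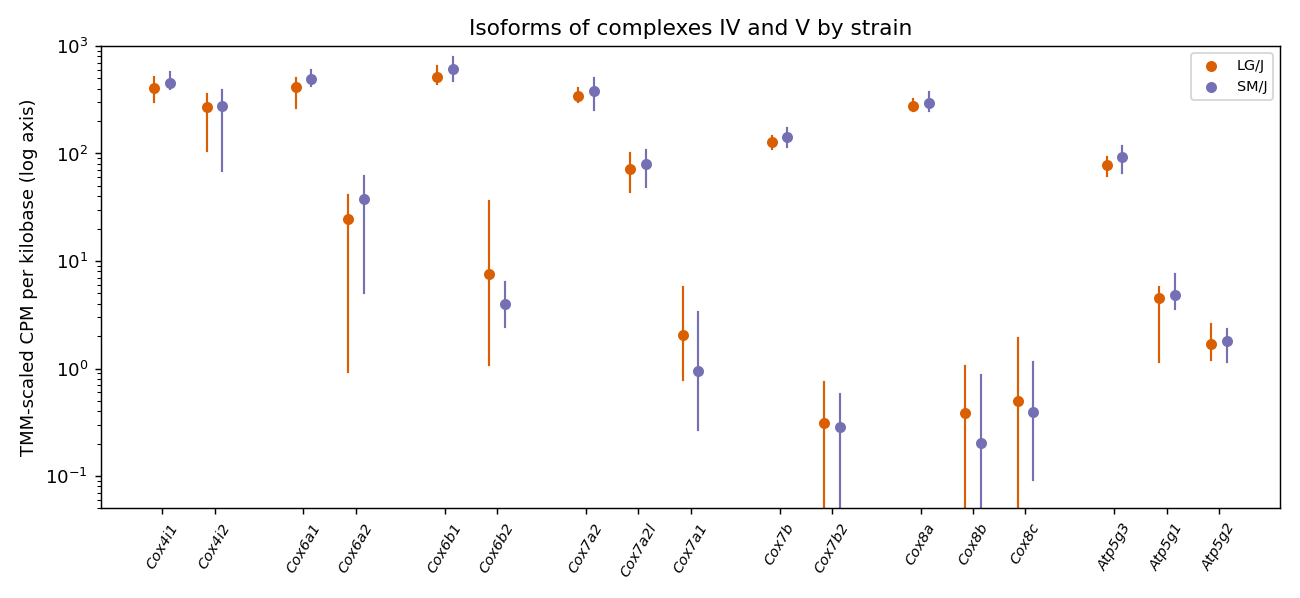
Mean (points) and range (lines) of TMM-scaled CPM per kilobase on a log axis for isoforms of complexes IV and V in 16 LG/J and 16 SM/J libraries, with the axis ending at 0.05. Cox4i2 lies nearer to Cox4i1 on this scale, of deposited gene length, than it does per transcript length (1.58-fold against 2.98-fold), and Cox6b2 in LG/J has a long upper line from both libraries numbered 1.

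In complex V, 9 of 17 genes were lower in LG/J and 1 was higher, where 13.5% and 16.4% of all genes were. The counts without the 8 libraries were 0 lower and 1 higher, and the higher gene was Atp5s in all libraries and Atp5h in the 24. Atp5b, the catalytic beta subunit, was at -0.30 ± 0.06 (adjusted p = 0.00030), with medians in LG/J of 468 CPM for females and 465 CPM for males. The SM/J medians were 571 CPM for females and 588 CPM for males. Atp5e, the small epsilon subunit of the rotor stalk, was at -0.26 ± 0.05 (adjusted p = 0.00013), and Atp5mpl, a small subunit of the membrane part, at -0.26 ± 0.06 (adjusted p = 0.0021). In the other 24 libraries these were -0.22 ± 0.08, -0.19 ± 0.07 and -0.13 ± 0.07, with adjusted p-values of 0.092, 0.068 and 0.29. Atp5a1, the alpha subunit, was lower at -0.15, Atp5d, the delta subunit of the rotor stalk, at -0.22, and Atp5o, the subunit that ties the outer stalk to the catalytic head, at -0.18. Atp5j and Atp5k, subunits of the stalk and the membrane part, were lower at -0.20 and -0.16, and Atp5k was not called without SM/J male 7. None of these 5 was called without the 8 libraries. Atp5c1, Atp5f1, Atp5j2 and Atp5l did not pass, at -0.06, -0.11, -0.02 and -0.07.

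Atp5e was nearly level in females and apart in males. Its lowest, median and highest levels were 255, 285 and 340 CPM in LG/J females and 258, 303 and 325 CPM in SM/J females, which overlap widely. In males they were 260, 278 and 339 CPM for LG/J and 329, 398 and 442 CPM for SM/J, where 1 LG/J library, number 8, reached into the SM/J range. The difference was -0.04 ± 0.07 in females and -0.48 ± 0.07 in males (adjusted p = 4.6e-06), and that of the 2 strain differences, -0.44 ± 0.10, had an adjusted p of 0.137. LG/J male 8 and SM/J males 3 to 8 are among the 8 libraries low in Cyc1 and Cox5a. SM/J males 3 to 8 were at 386 to 442 CPM, and SM/J males 1 and 2 at 329 and 364 CPM. The LG/J males other than number 8 were at 260 to 289 CPM. Without the 8, Atp5e was not called in males.

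Atp5s, a factor needed for coupling in complex V, was the 1 gene higher in LG/J in all 32 libraries, at 0.24 ± 0.08 (adjusted p = 0.033). Female medians were 20.0 CPM for LG/J and 17.0 CPM for SM/J, male medians were 22.2 and 19.7 CPM, and the strains overlapped in both sexes. Leaving out the 8 gave 0.31 ± 0.12 (adjusted p = 0.10), and the call was lost with each of 11 libraries left out in turn (numbers 2, 4, 5 and 7 of the LG/J females, 4, 5, 7 and 8 of the LG/J males, and 3, 4 and 5 of the SM/J females). Atp5h, the d subunit of the outer stalk, was higher in LG/J females at 0.25 ± 0.06 (adjusted p = 0.0064), with 77.5 to 94.4 CPM against 63.2 to 76.7 CPM in SM/J females and no overlap. In males it was at -0.03 ± 0.06, and over both sexes at 0.11 ± 0.05 (adjusted p = 0.069) in all libraries and 0.20 ± 0.06 (adjusted p = 0.021) without the 8. Windows shared with other transcripts made up 47.9% of the Atp5h transcript.

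The c subunit, which forms the rotor ring, is encoded by Atp5g1, Atp5g2 and Atp5g3 with the same mature protein. Atp5g3 was the main gene by counts, at 78.0 ± 8.14 per kilobase (SD, n = 16) in LG/J and 91.9 ± 15.1 (SD, n = 16) in SM/J. It was lower in LG/J at -0.23 ± 0.07 (adjusted p = 0.0085) and stood at -0.08 ± 0.09 without the 8 libraries. Atp5g1 was at 4.52 ± 1.28 and 4.81 ± 1.02 per kilobase, and Atp5g2 at 1.69 ± 0.36 and 1.80 ± 0.30. How far Atp5g3 exceeded Atp5g1 depends on the length used. It was 18.2-fold on this scale (2181 and 4912 bases), 52.8-fold per kilobase of the longest coding transcript (723 and 4715 bases) and 8.09-fold in CPM. The strain differences of Atp5g1 and Atp5g2 did not pass, at -0.07 ± 0.14 and -0.09 ± 0.11. Atp5g1 stood at 5.60 CPM in LG/J female 1 and 8.32 CPM in LG/J male 1, and the 14 remaining LG/J libraries had 21.5 to 27.9 CPM.

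A processed copy of Atp5g1 differed between the strains far more than any of the 45 genes. Gm10039 (ENSMUSG00000091478, GRCm38 chr11:100361716-100362126, minus strand, annotated in GENCODE as a processed pseudogene) lies on the same chromosome as Atp5g1 (chr11:96068852-96075670, minus strand). It was at 1.29 to 5.48 CPM in the 16 LG/J libraries and at 33.1 to 61.7 CPM in the 16 SM/J libraries. No library overlapped, and the difference was -3.48 ± 0.13 (11.2-fold lower in LG/J, adjusted p = 4.3e-21). Over the 411 bases of the Atp5g1 coding sequence, counted from the A of the start codon, the copy has 1 substitution in the reference, G385A, shown here in capitals because reads that miss this base cannot be told apart in the reference. The lines give positions 355 to 411.
Atp5g1: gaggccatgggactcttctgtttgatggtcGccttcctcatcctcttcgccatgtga
Gm10039: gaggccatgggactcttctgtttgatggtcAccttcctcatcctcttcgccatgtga

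Summing Atp5g1 with its copy gave -1.37 ± 0.13 (adjusted p = 6.4e-10) where Atp5g1 alone had -0.07, so the strain difference of this gene depends on which of the 2 loci the reads belong to. The counts do not show how reads common to both were assigned. Copies of at least 95% identity were counted for 15 of the 45 genes, 31 in all, and 25 of them were below 1 CPM. Of the 9 copies that passed the filter, 2 were called, both lower in LG/J, where 13.5% of all genes tested were. They were Gm10039 and Gm12338, a copy of Cox7c at 2.36 CPM and -0.29 ± 0.10. Atp5g1 was the 1 gene whose call changed over the strains when copies were added.

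**Figure D5:**
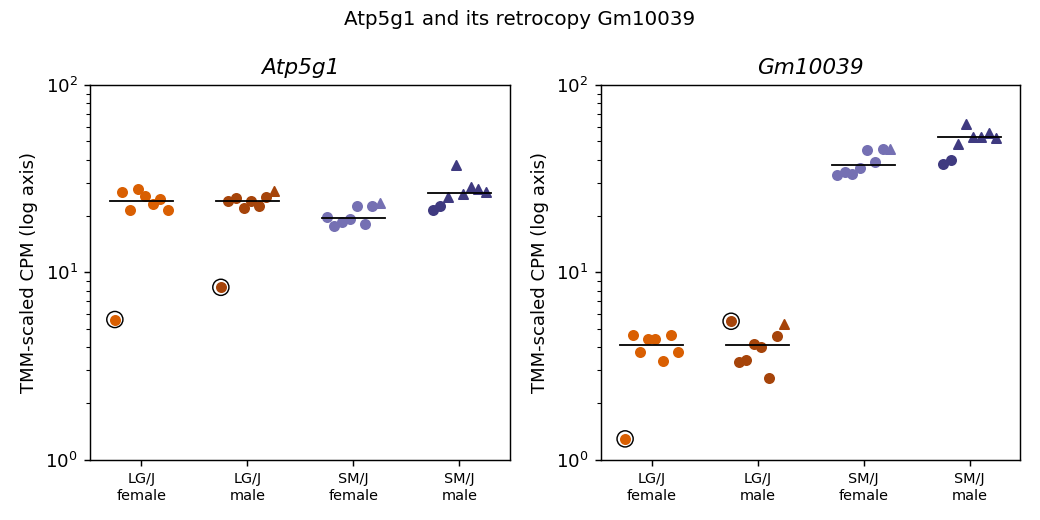
TMM-scaled CPM on a log axis of Atp5g1 and Gm10039 in 32 libraries by group, with a line at the group median, triangles for the 8 libraries low in Cyc1 and Cox5a, and rings around both LG/J libraries numbered 1. Gm10039 lies below 5.5 CPM for LG/J and above 33 CPM for SM/J, while Atp5g1 overlaps between the strains.

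Between the sexes, 7 of the 45 genes were called over both strains, where 3.46% of all genes tested were (1.33% higher and 2.13% lower in males). Cyc1 and Cox5a were lower in males, at -0.84 ± 0.18 and -0.94 ± 0.25, and Uqcrh, Atp5e, Atp5h, Atp5j and Atp5k were higher, at 0.16 to 0.26. Of the 8 libraries low in Cyc1 and Cox5a 7 are male. Without the 8 0 of 45 genes were called by edgeR, 2 had an unadjusted p under 0.05, and 0.033% of all genes tested were called. As Cyc1 and Cox5a chose the 8, the loss of their calls is a description and not a test. With each close pair of libraries summed, 0 were called (0.19% of all genes) and 17 had an unadjusted p under 0.05.

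Of the subunits encoded by mitochondrial DNA, mt-Cytb of complex III ran from 806 to 2674 CPM and mt-Co1 of complex IV from 544 to 1899 CPM. Neither was called between the strains by edgeR, at 0.31 ± 0.14 and -0.32 ± 0.15, and both had an unadjusted p under 0.05. With the gene length offset mt-Cytb was called higher in LG/J (0.41 ± 0.15, adjusted p = 0.046), whereas mt-Co1 was called lower when both LG/J samples numbered 1, in which it was at 1468 and 1899 CPM, were left out (-0.50 ± 0.11, adjusted p = 0.0010). The other subunits of complexes IV and V on that list, mt-Co2, mt-Co3, mt-Atp6 and mt-Atp8, were at or near 0 in all libraries, at most 0.0508 CPM. What keeps their reads out of the counts was not tested, and their levels give no information on these subunits.

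Genes that assemble complexes II to V were called in both directions: of 38 tested, LG/J had 4 higher and 9 lower in all libraries, where 16.4% and 13.5% of all genes were. Without the 8 libraries the counts were 1 and 4, where 6.35% and 5.96% of all genes were. Of these, Cox17, Sdhaf3, Lyrm7 and Cox19 were called in both and Tmem70 (-0.40 ± 0.13) in the 24 alone. With the gene length offset the counts were 6 and 4, where 14.7% and 12.4% of all genes were. The balance of directions thus depends on that setting. Lyrm7, which stabilises the Rieske protein before its insertion into complex III, was 2.24-fold lower in LG/J (-1.16 ± 0.10, adjusted p = 1.9e-11). The copper carrier for complex IV, Cox17, was higher at 0.69 ± 0.08 (adjusted p = 6.1e-08), and Cox19, another copper-handling factor, was lower at -0.40 ± 0.05 (adjusted p = 4.4e-08). In the other 24 libraries these 3 were still called, at -1.10 ± 0.13, 0.68 ± 0.13 and -0.31 ± 0.06. Of 17 regulators of mitochondrial biogenesis 1 was called higher and 0 lower, against 16.4% and 13.5% of all genes. This was Gabpb1, a subunit of the GABP factor, at 1.08 ± 0.08 (adjusted p = 1.8e-12), and at 0.87 ± 0.08 without the 8 libraries.

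Of 18 citric acid cycle genes 8 were lower in LG/J and 0 higher, against 13.5% and 16.4% of all genes, with a list median of -0.12. With the gene length offset 6 were lower and 1 higher, against 12.4% and 14.7% of all genes, with a median of -0.08. Pdha1 of pyruvate dehydrogenase, Sucla2 of succinyl-CoA ligase and Idh3g of isocitrate dehydrogenase had the smallest p, at -0.20 ± 0.05, -0.24 ± 0.06 and -0.16 ± 0.04. In the other 24 libraries 0 of 18 were called, 3 had an unadjusted p under 0.05, and the median was -0.06. Glycolysis genes were called 4 higher and 1 lower of 18, against 16.4% and 13.5% of all genes. Without the 8 libraries 3 were higher and 1 lower, against 6.35% and 5.96%. Hk2, a hexokinase, was higher at 0.64 ± 0.09, Aldoc, an aldolase, at 2.03 ± 0.32, and Gapdh was lower at -0.67 ± 0.10. Of 13 genes for cristae and mitochondrial carriers, 1 was higher and 2 were lower, against 16.4% and 13.5% of all genes. For these 13, 0 were called by edgeR without the 8 libraries, with 0 at an unadjusted p under 0.05.

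Markers of chondrocytes and of other cells were compared between the strains as well. The 12 macrophage markers were all detected, with a summed level of 32.7 to 1734 CPM (median 75.7) in LG/J and 92.3 to 1236 CPM (median 321) in SM/J. Over both sexes 3 of 11 tested were lower in LG/J, where 13.5% of all genes were. In females 6 of 11 were lower, where 6.49% of all genes were, with a median of -2.32. In males 0 were called, with a median of 0.09. The summed level was nonetheless lower by median for LG/J in both sexes. LG/J males had a median sum of 128 CPM, ranging from 48.2 to 1734. For SM/J males it was 401 CPM, ranging from 192 to 589. Female sums had medians of 71.5 CPM (LG/J) and 289 CPM (SM/J). The difference between the sexes was not tested for this list. Leaving out the 8 libraries, 0 of 12 were called over both sexes and 3 were lower in females, where 5.11% of all genes were. In the 8 libraries low in Cyc1 and Cox5a the sum was 179 to 589 CPM. The 10 chondrocyte markers summed to 1755 to 51077 CPM for LG/J and 11157 to 42590 CPM for SM/J. In LG/J 3 of 10 were higher, where 16.4% of all genes were, with a median of 0.62. Without the 8 libraries 0 were called, and without both LG/J libraries numbered 1 there were 7 higher, with a median of 0.81. The share over all genes in that last setting is not given here. Of the 7 fat cell markers, Adipoq was at most 0.949 CPM and Ucp1 at most 0.525 CPM, whereas Fabp4, which is also found in macrophages and vessels, ran from 7.28 to 412 CPM and Cidea from 0.955 to 14.7 CPM. Their summed level was 19.4 to 415 CPM (median 59.2) in LG/J and 31.1 to 404 CPM (median 130) in SM/J. Fabp4 was at 412 and 329 CPM in both LG/J samples numbered 1, and when these were left out it was called lower in LG/J (-1.46 ± 0.50, adjusted p = 0.026). Of the 7 erythroid markers none passed the filter. Of 5 muscle markers tested 1 was lower in LG/J (Tnnt3, a fast muscle troponin, at -1.08 ± 0.22), of 3 fat cell markers 0 were called, with 0 at an unadjusted p under 0.05 by edgeR, and of 7 osteoblast markers 1 was higher (Phex, at 0.74 ± 0.27). Counts of 1 of 5 and 1 of 7 lie near the shares over all genes, 13.5% lower and 16.4% higher. Neither Tnnt3 nor Phex was called without the 8 libraries. The part of these cells in the differences of the respiratory genes was not tested.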

How the data were processed

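Total RNA of 32 libraries was sequenced from SMARTer libraries, per the labels. Reads were aligned with STAR 2.0.4b and counted with featureCounts 1.45 on GRCm38, per the submitters' processing notes. How strand was handled is not given in the sources used here. Deposited tables hold raw read counts per gene and, per the file headers, CPM and RPKM made by the authors. Only the counts were tested, with edgeR 4.0.16 (R 4.3.3): filterByExpr, TMM factors, 1 mean per strain and sex, a robust quasi-likelihood fit and Benjamini-Hochberg adjustment over 16136 genes. SE is the log2 fold change over the root of F. On simulated counts of 16136 genes the strain test called 3% of 100 genes changed 1.2-fold and 77% of 100 changed 2-fold. Of its 86 calls 6 were of unchanged genes. Few genes were changed in that simulation, whereas in the data 16.4% of all genes tested were called higher and 13.5% lower. The simulated shares thus do not give the share that would be found among the genes of complexes II to V, which was not tested. A gene that did not pass may still differ by folds as small as those given here. Alternatives were library size only, a replicate block, a gene length offset, DESeq2 1.42.0, limma 3.58.1 voom, libraries left out, close pairs summed and copies summed. Copies were found with BLAST 2.17.0. Values are given for up to 3 called genes of smallest p per complex, direction and list, for complex II, Cyc1, Cycs and isoforms whatever their result, for genes called between the sexes, and for those changed by summing copies; the other subunits were added as values. The members and lists were chosen with earlier results of these data known.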

Additional observations from a re-analysis of the deposited data

Results flagged for a closer look

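Group by group, 16 of 135 sets of 8 libraries had 1 library whose gap to the nearest of the others passed Dixon's 95% limit, and chance flags about 1 in 20 such sets. Both LG/J libraries numbered 1 account for 8 of the 16. In LG/J female 1, Cox4i1 was at 462.62 CPM (others 583.68 to 682.35), Cox6a1 at 187.72 CPM (others 274.89 to 348.25) and Atp5g1 at 5.6026 CPM (others 21.475 to 27.906), all low. The same library was high in Cox6b2, at 39.649 CPM, and in Cox7a1, at 2.0933 CPM. In LG/J male 1, Sdha was low at 322.25 CPM (others 390.99 to 446.9) and Atp5g1 at 8.3209 CPM, while Cox6b2 was high at 37.003 CPM.

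Among the libraries low in Cyc1 and Cox5a, Cox5a was at 16.011 CPM in LG/J male 8 and at 18.937 CPM in SM/J female 8, and it helped to choose them. LG/J male 8 was also high in Cox7b, at 176.46 CPM (others 141.28 to 156.81), and in Atp5e, at 338.92 CPM (others 259.75 to 289.24). Single high values elsewhere were Cox5a in LG/J female 3 at 88.534 CPM, Cox7a1 in SM/J female 2 at 1.2232 CPM, Atp5g1 in SM/J male 4 at 37.189 CPM and Atp5g2 in LG/J male 3 at 4.3309 CPM.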

How the results depend on the processing

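In all 32 libraries 20 genes were lower and 1 higher in LG/J (females 4 and 1, males 20 and 1). Of the 45, 0 had a strain difference that differed between the sexes, and 7 differed between the sexes. The alternatives that moved these counts follow, and their causes were not tested. Except where given above, the share of all genes called under each alternative is not given. A change in these counts can therefore not be told from a general rise or fall in calls. With library size only, 10 were lower, 2 lower in females and 10 in males, and 2 differed between the sexes. With upper-quartile factors 2 were lower in females. With no filter on low counts 0 were higher, 0 higher and 1 lower in females, and 1 differed between the sexes. The gene length offset gave 3 higher and 12 lower, 4 and 2 in females, 2 and 10 in males, and 2 between the sexes. DESeq2 gave 1 for the difference between the sexes' strain values and 13 between the sexes. Limma voom gave 3 higher, 3 higher in females, 2 higher in males, 10 for the difference of the strain values and 24 between the sexes. Without both LG/J libraries numbered 1, 2 were higher, 6 higher in females, and 11 differed between the sexes. Without the 6 with Xist and Ddx3y together, 1 was lower in females and 3 differed between the sexes; without both sets, 11 were lower, with 4 higher and 2 lower in females. With close pairs summed, 0 were higher and 10 lower, 1 lower in females, 0 higher and 10 lower in males, and 0 between the sexes. Without the 8 libraries low in Cyc1 and Cox5a, chosen after seeing the data, 3 were lower and 6 lower in females. Both counts include Cox5a, which helped to choose the 8. In males 0 were higher and 0 lower, and 0 differed between the sexes. The loss of Cyc1 in males, and of Cyc1 and Cox5a between the sexes, follows from how the 8 were chosen. Without the 8 and the LG/J libraries numbered 1, 4 were higher and 3 lower, Cox5a again among the latter. There 6 were higher in females, 0 and 0 in males, 0 between the sexes, and the median was -0.02 (-0.024). With the length offset and without the 8, 3 were higher and 2 lower, 4 and 2 in females, 0 and 0 in males, 0 between the sexes, and the median was -0.02 (-0.021). With 1 library left out at a time, 16 to 22 genes were lower and 0 to 2 higher, 3 to 6 and 1 to 2 in females, 17 to 25 and 1 to 2 in males, 0 to 1 for the difference of the strain values and 2 to 11 between the sexes (2 to 4 on leaving out, singly, numbers 5, 6 or 8 of the LG/J females, 5, 7 or 8 of the LG/J males, 3, 4 or 5 of the SM/J females or 3 to 8 of the SM/J males, and 11 without LG/J male 1).

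The replicate block gave 1 higher and 21 lower, 25 lower in males, and 13 between the sexes, again without the shares over all genes. The main fit did not pair libraries by number, although same-numbered libraries of different groups were by the median somewhat more alike. Of 48 same-numbered pairs 30 had a correlation of deviations over 0.1 (-0.447 to 0.844, median 0.138, against -0.0134 for other pairs). Of 32 libraries 7 matched their own number best. Whether the numbers stand for a shared origin was not tested.

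Values that changed sign are those of genes that missed the test in all 32 libraries, apart from Sdhd and Uqcrc2. Without the 8 libraries, then also without the LG/J libraries numbered 1, then with the length offset and without the 8, Cycs was at 0.139, 0.153 and 0.166, Cyc1 at -0.0855, -0.0754 and -0.0338, Cox5a at -0.352, -0.344 and -0.320, Cox7a2 at 0.0498, 0.0702 and 0.0828, Cox4i2 at 0.0798, 0.125 and 0.116 and Atp5g1 at 0.0688, 0.204 and 0.0777. In the last 2 of these, Sdhd was at 0.00774 and 0.0287, Uqcrc2 at 0.00353 and 0.0411 and Uqcrh at 0.00447 and 0.00335. With the length offset alone Uqcrh was at 0.0134, Cox4i2 at 0.0969 and Cox8a at 0.00151. Cox4i2 was at 0.0105 with library size only, 0.0427 with limma voom and 0.0376 without the LG/J libraries numbered 1, where Cox6b2 was at -0.149 (-0.243 with limma voom) and Atp5g1 at 0.0629. Sdhb was at -0.00478 with the replicate block, -0.154 without the 6 libraries, -0.0427 without these and the LG/J libraries numbered 1 (Atp5g1 0.000737) and -0.0319 with pairs summed. Cox7c was at -0.00321 with DESeq2 size factors, -8.07e-05 with no filter, -0.00469 with DESeq2, -0.0441 without the 6, -0.0350 without both sets, -0.0180 with pairs summed and -0.0755 with copies summed. With 1 library left out at a time, Sdhb ran from -0.0113 to 0.0864, Cox4i2 from -0.0779 to 0.0580, Cox7c from -0.0226 to 0.0204 and Atp5g1 from -0.103 to 0.000653.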
